A study of Mus musculus with 9 samples.

Results

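LSK cells are the lineage-negative, Sca-1-positive, Kit-positive fraction of mouse bone marrow that holds the blood stem cells and early progenitors. The comparison described here sets LSK cells carrying DNMT3A R882H against LSK cells carrying an empty vector, 3 samples of each, which are 6 of the 9 samples of the series; members were taken by the group named in the sample titles. All 9 samples, 3 of which carried wild-type DNMT3A and serve here only for the estimate of spread and as values set alongside, came from mice of the C57BL/6 background, were transduced with a vector marked by GFP, passed through a transplanted mouse, and were sorted before RNA extraction. RNA of 3.67 ng a sample was amplified to cDNA, and each sample was read on 1 Agilent array with 1 colour. The labels do not say whether samples of a group came from separate mice or separate transductions, so p-values rest on the scatter among these samples, and that scatter may be technical. They also do not give the time after transplantation, the promoter of the vector, the species of the DNMT3A coding sequence or the cells the hosts still had. No step the labels name alters the mice's own Dnmt3a gene. The groups follow the scanner files' own labels: in the authors' deposited value table, 7 of 9 columns hold the array of a sample other than the one they are named for, and which of the 2 assignments is right cannot be told from the files.

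DNMT3A is an enzyme that places new methyl groups on cytosines that precede a guanine (CpG). The arginine that R882H replaces is its residue most often mutated in acute myeloid leukaemia, and in biochemical work the histidine form lowers the activity of the complexes it joins. In mouse bone marrow, loss of the enzyme is known for expanding the stem cell pool at the cost of differentiation. DNA methylation was not measured here; the values are RNA levels only.

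No gene passed the test. Of 12920 genes tested with limma, 0 had an adjusted p under 0.05, a background share of 0%, and the smallest adjusted p was 0.297. At an unadjusted p under 0.05, 1180 genes (9.13%) stood out, 728 with higher means with R882H (5.63%) and 452 with lower means (3.5%), where 0.05 of the genes tested would be 646. All 3 R882H arrays lay above all 3 empty vector arrays for 1240 genes (9.6%) and below them for 1146 (8.87%), together 18.5% of the genes. The mean was higher with R882H for 47.9% of genes, and the median difference was -0.02 on the log2 scale. The split by direction depended on the scaling and on the detection filter. Of the genes at an unadjusted p under 0.05, 61.7% were higher when arrays were scaled to their 75th percentile. The share was 48.2% after another background correction (normexp). It was 20.5% when arrays were scaled to their median, which moved the median of all genes to -0.17. The filter let in 916 genes through the R882H arrays alone and 160 through the empty vector arrays alone. Under a stricter filter that asked for detection on all 6 arrays, 533 genes were higher and 457 lower at that p (53.8% higher). Without overlap, 1000 genes were then higher and 1120 lower. Every level below is log2 signal scaled to the 75th percentile of its array, a log2 difference is R882H minus empty vector, errors are SE of the fit with 3 arrays a group unless named otherwise, and none of the differences passed the adjusted threshold. Levels of different genes rest on different probes and are not set against each other.

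The 6 arrays were alike in overall terms. Correlations over the genes were 0.963 to 0.978 among empty vector arrays, 0.979 to 0.985 among R882H arrays and 0.955 to 0.980 between the groups. Empty vector replicate 3 stood furthest from the others: it was the highest of the 6 arrays for 24.7% of genes and the lowest for 21.2%. No slide held both groups, because the 3 empty vector arrays shared 1 slide and the R882H arrays lay on 2 others, so a within-slide value cannot be had, and slide and group are linked only through the wild-type arrays. R882H replicate 3 was alone on its slide, so a fit with the slide as a block takes nothing from it. That fit joins the other slides through wild-type replicate 1 on the empty vector slide and wild-type replicates 2 and 3 on the other. Its values hang on those readings. The sort genes were present at like levels, with Kit, the stem cell factor receptor, at 3.92, 4.38 and 3.84 in the empty vector arrays and 4.33, 4.60 and 3.99 in the R882H arrays. Ly6a, which encodes Sca-1, stood at 1.96, 1.99 and 2.36 against 2.11, 1.73 and 2.88; its difference of 0.13 ± 0.39 turned to -0.02 with array-median scaling. Dnmt3a, read by a probe for the mouse transcript (NM_007872), stood at 1.14, 1.44 and 0.51 against 1.67, 1.44 and 1.08, a difference of 0.37 ± 0.37, and nothing in the labels says whether that probe would read the vector. Genes of other blood cells differed in mean between the groups, in part with array means that overlapped. The mean over the 10 granulocyte and monocyte genes was 3.02 to 4.72 in the empty vector arrays and 2.44 to 3.48 in the R882H arrays, with replicate 3 the highest in each group. That over the 3 of 9 mature neutrophil genes that were tested was 2.20 in empty vector replicate 3 against -1.23 to -0.90 in the other empty vector arrays and -1.20 to -0.98 with R882H. Over the 10 of 12 megakaryocyte genes tested, 1 of which passed the filter only through the R882H group, the array means were -0.72 to 0.31 against 0.45 to 1.20 and did not overlap; all 10 had the higher mean with R882H, 5 without overlap, against 9.6% of all genes. All 8 stem and multipotent progenitor genes, 1 of which passed the filter only through the R882H group, also had the higher mean, 1 without overlap. Their array means overlapped, at 0.25 to 1.72 against 1.33 to 1.88. Mature neutrophil genes S100a8, Ngp, Ltf, Mmp8, Mmp9 and Retnlg did not reach the detection filter. The part of these cells in the differences below was not tested, and in bulk RNA fewer cells of a type and less RNA per cell cannot be told apart.

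The promoters of 4 genes that stand at the head of the comparison are shown first, because DNMT3A acts on CpG and CpG content is described further on. They are the first 2 genes in each direction, by smallest p, with an entry in the RefSeq promoter table (build GRCm38.p6, 250 bases before to 50 bases after the transcript start, plus strand for all 4). Higher with R882H were Prl3b1, a placental lactogen of the prolactin family, at chr13:27242180-27242479, and Syp, which encodes the synaptic vesicle protein synaptophysin, at chrX:7638330-7638629. Lower with R882H were Odf2l, a centriole protein gene, at chr3:145118339-145118638, and Ak4, a mitochondrial adenylate kinase gene, at chr4:101419039-101419338; the table holds 2 starts for Odf2l and 4 for Ak4, and the first is shown. Capitals mark each CG, the only motif searched, which reads the same on both strands and occurs at least once in 94.6% of the 32851 promoters of that length.
Prl3b1: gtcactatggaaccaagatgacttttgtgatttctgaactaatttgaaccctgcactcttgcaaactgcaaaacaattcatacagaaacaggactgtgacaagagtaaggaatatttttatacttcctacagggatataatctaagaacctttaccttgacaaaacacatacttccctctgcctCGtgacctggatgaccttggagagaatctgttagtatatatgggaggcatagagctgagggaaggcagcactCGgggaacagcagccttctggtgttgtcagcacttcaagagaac
Syp: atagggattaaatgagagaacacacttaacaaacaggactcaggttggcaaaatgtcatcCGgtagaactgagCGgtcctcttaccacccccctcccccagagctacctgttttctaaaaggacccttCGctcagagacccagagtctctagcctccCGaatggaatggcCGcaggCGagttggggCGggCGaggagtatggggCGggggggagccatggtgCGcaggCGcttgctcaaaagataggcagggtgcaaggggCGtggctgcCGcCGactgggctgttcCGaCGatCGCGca
Odf2l: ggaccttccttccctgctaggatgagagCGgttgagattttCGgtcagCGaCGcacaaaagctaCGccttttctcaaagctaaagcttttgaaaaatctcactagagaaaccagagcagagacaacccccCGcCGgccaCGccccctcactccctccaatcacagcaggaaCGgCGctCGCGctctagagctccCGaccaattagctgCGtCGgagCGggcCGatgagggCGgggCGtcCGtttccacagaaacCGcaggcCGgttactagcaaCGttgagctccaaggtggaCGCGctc
Ak4: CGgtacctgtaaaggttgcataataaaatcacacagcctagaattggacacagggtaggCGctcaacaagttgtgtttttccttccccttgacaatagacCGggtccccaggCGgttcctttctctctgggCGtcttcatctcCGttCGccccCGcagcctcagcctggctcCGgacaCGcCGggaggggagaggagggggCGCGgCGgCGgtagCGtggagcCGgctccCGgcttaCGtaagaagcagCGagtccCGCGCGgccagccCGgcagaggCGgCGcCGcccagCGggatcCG

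These 300 bases hold 2 CG in Prl3b1, 18 in Syp, 25 in Odf2l and 29 in Ak4, against a median of 7 over all promoters of the table. Fewer CG were found in 14.1% of all promoters than in that of Prl3b1, in 70.3% than in that of Syp, in 81.6% than in that of Odf2l and in 87.1% than in that of Ak4. The counts describe the sequence and say nothing of its methylation in these cells.

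Prl3b1 was the gene of smallest p. Its signal was -1.98, -1.99 and -1.96 in the 3 empty vector arrays and -1.17, -0.86 and -0.72 in the 3 R882H arrays. The groups did not overlap, the empty vector arrays lay within a few hundredths of each other, and the difference was 1.06 ± 0.17, or 2.08-fold. Syp stood at -1.75, -1.42 and -1.36 against -0.54, -0.56 and -0.72, again with every R882H array above every empty vector array, a difference of 0.90 ± 0.15. Ak4 stood at 1.70, 2.21 and 2.33 with the empty vector and at 1.07, 0.76 and 0.87 with R882H. All 3 R882H arrays were the lower ones, by 1.18 ± 0.20 on average, and both detected Ak4 probes had the same sign. Odf2l stood at -3.10, -3.11 and -3.39 with the empty vector and was not well above background on any R882H array, where it read -5.28, -4.42 and -5.71. With the dim group taken at no less than each array's lowest signal well above background, Odf2l was at least 2.47-fold lower with R882H. The adjusted p of these 4 genes was 0.297 each by limma.

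Of the other genes of smallest p whose groups did not overlap, 10 were higher with R882H. Rab27b, a GTPase that docks secretory granules, stood at 0.31, 0.64 and 0.21 with the empty vector and 1.35, 1.43 and 1.37 with R882H, a difference of 0.995 ± 0.18. Rabggta, the alpha subunit of the enzyme that attaches lipid anchors to Rab proteins, stood at -1.77, -2.16 and -2.23 against -0.62, -0.55 and -0.76, a difference of 1.41 ± 0.26. Both were higher on every R882H array. Tbx21, which encodes the T-bet factor of T and NK cells, differed by 0.87 ± 0.16, with -1.85, -1.65 and -1.66 against -0.61, -1.06 and -0.89. The wild-type DNMT3A arrays read -1.74, -1.72 and -1.77 for Tbx21, within the range of the empty vector arrays. Crip2, which encodes a LIM-domain protein, differed by 1.36 ± 0.24, Serpina3f, a serine protease inhibitor of a multigene cluster whose probes may not tell copies apart, by 0.91 ± 0.16, and Nkain2, a partner of the sodium pump, by 0.76 ± 0.14. Crip2 was well above background on only 2 of the empty vector arrays, so it passed the filter through the R882H group alone. With normexp its difference was 0.54. Adgrb1, an adhesion receptor that recognises dying cells, differed by 1.09 ± 0.21, but 1 of its 2 detected probes had the opposite sign. C1qtnf1, a secreted protein gene of the C1q and TNF-related family, was well above background on no empty vector array and was at least 1.53-fold higher with R882H. The same held for Chst10, a sulfotransferase of neural glycans, at least 1.95-fold higher, and Pls1, an actin-bundling plastin, at least 1.57-fold higher.

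Another 9 genes of smallest p were lower with R882H on every array. Sptlc2, a subunit of serine palmitoyltransferase that starts sphingolipid synthesis, stood at 1.24, 1.27 and 1.44 against 0.68, 0.56 and 0.45, a difference of -0.75 ± 0.14. The groups lay well apart, and both detected probes had the same sign. Zbtb16, which encodes the zinc finger factor PLZF, stood at 1.06, 1.28 and 1.22 with the empty vector and 0.32, 0.42 and 0.61 with R882H, a difference of -0.74 ± 0.14. For Zbtb16 the wild-type arrays, at 0.61, 0.56 and 0.53, lay with or near the R882H arrays, whereas for Ak4 they read 2.24, 2.17 and 2.53, with or above the empty vector arrays. Ddi2, a protease that cleaves a transcription factor of proteasome genes, stood at 0.10, 0.05 and -0.08 against -0.69, -0.70 and -0.87, a difference of -0.78 ± 0.16. Usp47, a deubiquitinase, differed by -0.79 ± 0.16 and Tbkbp1, an adaptor of the kinase TBK1, by -0.99 ± 0.21. Tbc1d7, a subunit of the TSC complex that restrains mTOR, differed by -0.94 ± 0.19. Ccl6, a chemokine of myeloid cells, differed by -1.68 ± 0.34, beside the granulocyte and monocyte genes given above. Dab2, an endocytic adaptor, and Jpx, a noncoding RNA of the X inactivation centre, were not well above background on any R882H array, and stood at least 4.96-fold and at least 2.89-fold lower there.

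For the genes of smallest p named above, 12 higher and 11 lower, the adjusted p-values from limma were 0.297 to 0.325. Their direction was the same under each alternative scaling, background correction, block and left-out array that was run, and their adjusted p-values there ran from 0.139 up to 0.996. The size was less stable. With normexp background correction, which compresses dim signals, the 12 higher genes differed by 0.24 (C1qtnf1) to 0.88 (Rab27b) and the 11 lower ones by -1.08 (Ak4) to -0.35 (Odf2l). With the slide as a block, Pls1 moved from 2.55 to 0.85, Tbkbp1 from -0.99 to -0.45, Rabggta from 1.41 to 2.22 and Ccl6 from -1.68 to -2.61, whereas Tbx21 stood at 0.90, Syp at 0.89, Ak4 at -1.28 and Zbtb16 at -0.75.

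**Figure D1:**
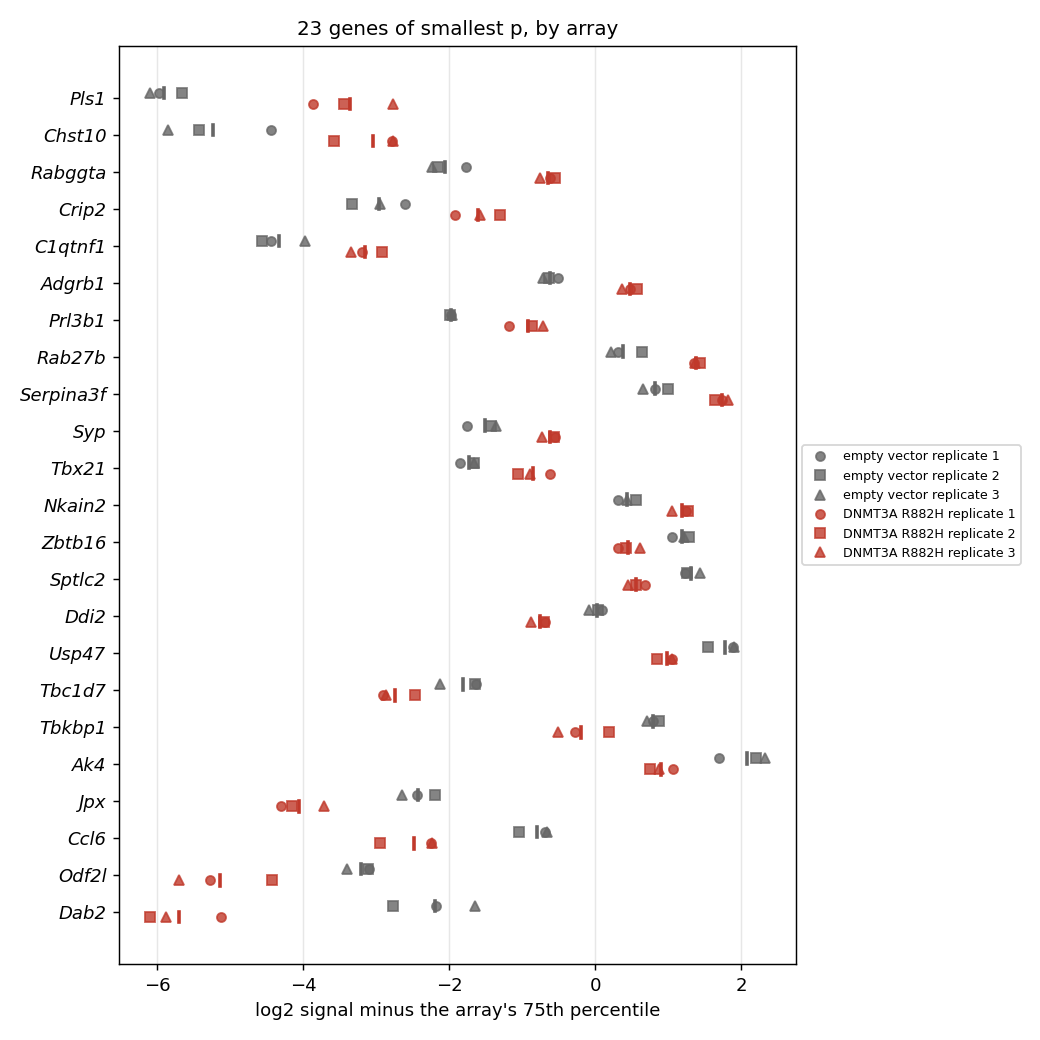
Log2 signal, scaled to the 75th percentile of its array, for the named genes of smallest p, 12 higher and 11 lower (rows), with 1 point for each of the 3 empty vector arrays (grey) and 3 R882H arrays (red) and a vertical tick at each group's mean. The groups do not overlap in any row, which is how the genes were chosen; Prl3b1 goes from a mean of -1.98 to -0.92 and Ak4 from 2.08 to 0.90.

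Of the genes named next for the size of their difference, Pglyrp1 was well above background on all 6 arrays and each of the others was not on at least 1. Wtip, a LIM-domain protein gene, and Mtss2, an actin regulator gene, were well above background on no empty vector array and were at least 3.11-fold and at least 4.01-fold higher with R882H. Hoxb2, a homeobox gene of progenitors, stood at -2.37, -4.50 and -4.58 against -0.83, -0.75 and -0.60, well above background on 1 empty vector array; its difference of 3.09 ± 1.01 shrank to 0.19 with the slide as a block. Pou2af1, a coactivator of B cells, stood at -1.82, -2.96 and -3.86 against -1.43, 0.66 and 0.99, and its difference of 2.95 ± 1.03 turned to -0.27 with that block. The wild-type arrays, which enter both slide-block values, read -5.74, -1.36 and -4.47 for Hoxb2 and -3.59, -2.08 and 0.42 for Pou2af1. Beside Pou2af1, the mean over the 10 of 14 B lineage genes tested was -1.96 to -1.11 with the empty vector and -0.25 to 0.07 with R882H. Of the 10, 5 passed the filter only through the R882H group. The median difference was 1.31 over the 10 and 0.42 over the 5 detected on all 6 arrays, and their part was not tested. Cep112, a centrosome protein gene, differed by 2.60 ± 1.02 and was well above background on 1 empty vector array. On the lower side, Aldh3b1, an aldehyde dehydrogenase gene, was well above background on no R882H array and at least 6.14-fold lower, but its fitted difference of -3.01 came to -0.82 with the slide as a block and -0.86 with normexp. N4bp2l1 stood at -2.37, -3.01 and -1.35 against -3.46, -6.03 and -3.24, and its difference was -1.11 without R882H replicate 2. Klhl23 differed by -1.96 ± 0.51 and was well above background on 1 R882H array. Pglyrp1, a granule protein gene of neutrophils, stood at 1.66, 1.25 and 3.27 against 0.03, 0.10 and 0.49. Its difference of -1.85 ± 0.60 came to -1.25 without empty vector replicate 3, the array with high S100a9 and Lcn2.

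Beyond single genes, 35 lists of pathway genes were described by their counts and medians. Of these, 18 had a median difference under -0.1, 6 had one above 0.1 and 11 lay between. The lists with the lowest medians were those of protein folding, energy metabolism and the machinery that makes and removes proteins. Those with the highest medians were of TGF-beta and BMP signalling, KLF and SP factors and potassium channels. For KLF and SP factors the median was only 0.05 over the 18 members detected on all 6 arrays. Brightness moved with this pattern: over 5 equal classes of genes, from dimmest to brightest, the median difference went from 0.21 through 0.07, -0.02 and -0.09 to -0.11, and the share with a higher mean with R882H went from 67.6% to 32.0%. The median local background was 28 to 29 on the empty vector arrays and 24 to 25 on the R882H arrays, and spots well above background made up 53.4% to 57.6% and 57.6% to 64.8%. The 2 brightest classes held 35 of 36 oxidative phosphorylation genes, 19 of 21 of the tricarboxylic acid cycle, 30 of 33 of the proteasome, 26 of 33 of splicing, 23 of 32 of the mitochondrial ribosome, 19 of 26 of endoplasmic reticulum folding and 15 of 20 transfer RNA synthetases. They held 14 of 36 TGF-beta and BMP genes, 10 of 28 guidance genes, 9 of 21 KLF and SP genes and 2 of 20 potassium channels. By construction, these 2 classes held 5168 of all 12920 genes. The lists of low median named here thus lay among bright genes. Of the other lists with a median under -0.1, the sphingolipid list (11 of 27) and the clock list (7 of 17) lay near the share of all genes. Of the lists with a median above 0.1, TGF-beta and BMP and KLF and SP also lay near it, and the cAMP list held 15 of 27. The part of brightness in a list's median was not tested. With the deposited value table grouped by its own column names, most medians lay nearer 0, at -0.04 for oxidative phosphorylation, -0.02 for endoplasmic reticulum folding and 0.15 for TGF-beta and BMP, while potassium channels stood at 0.20.

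**Figure D2:**
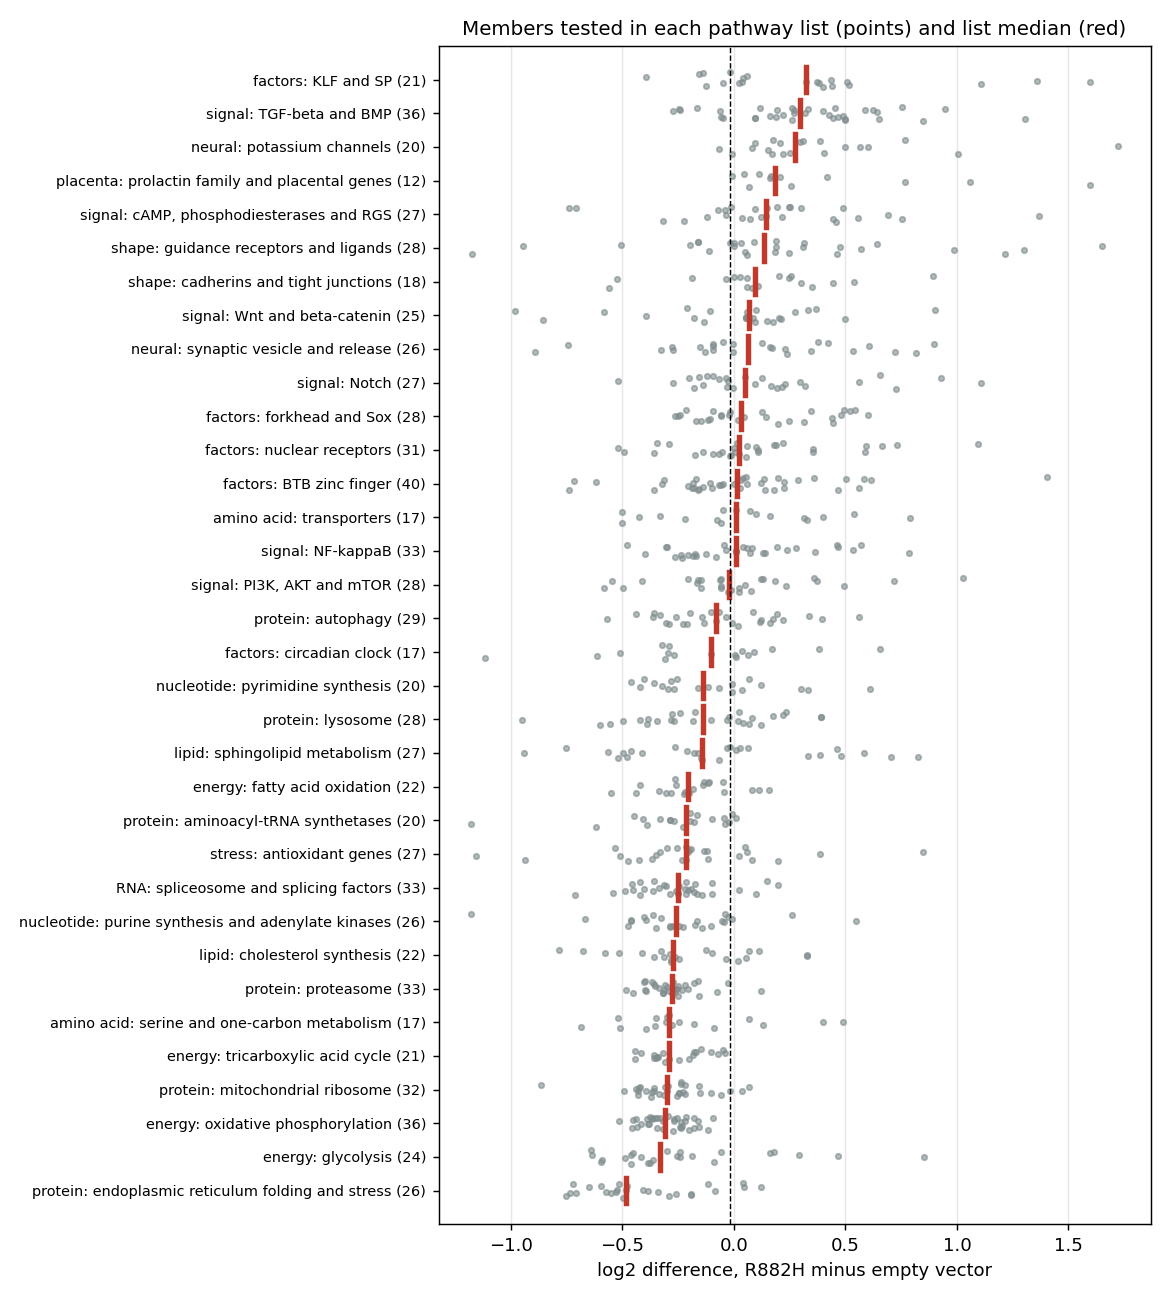
Log2 difference, R882H minus empty vector, of each tested member (grey points) of 34 pathway lists, with the list's median as a red bar, the number of members tested in brackets and the median of all 12920 genes as a dashed line at -0.02. Medians run from -0.48 for endoplasmic reticulum folding to 0.32 for KLF and SP factors, and members of the oxidative phosphorylation list all lie below 0. Over the 18 KLF and SP genes detected on all 6 arrays the median is 0.05.

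Genes of mitochondrial respiration were lower on average, each by a small amount. All 36 oxidative phosphorylation genes and all 21 tricarboxylic acid cycle genes tested had the lower mean with R882H, with medians of -0.31 and -0.29. Without empty vector replicate 3 the medians were -0.21 and -0.19, and all members of both lists still had the lower mean. At an unadjusted p under 0.05, 2 of the 36 and 1 of the 21 were lower and none higher, against 3.5% of all genes lower. The groups did not overlap, with R882H lower, for 13 of the 36 and 6 of the 21, against 8.87% of all genes. By complex, the median was -0.33 over 16 genes of complex I, -0.33 over 5 of complex III, -0.23 over 6 of complex IV and -0.25 over 8 of complex V. Of the 36 genes, 32 lay in the brightest class, whose own median was -0.11. The share of 8.87% is over genes of every brightness, here and for the lists below. Among the brightest genes with a promoter in the RefSeq table, the share lower without overlap was above it. It was 12.6%, 15.4% and 21.4% in the low, middle and high class of promoter CpG content, described further on.

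A pair of members with small p-values shows how the arrays fell. Uqcrc1 of complex III stood at 3.40, 3.27 and 3.55 against 2.97, 2.67 and 3.21, a difference of -0.46 ± 0.20, and Atp5b, the catalytic beta subunit of ATP synthase, at 4.59, 4.41 and 4.75 against 4.09, 4.10 and 4.39, a difference of -0.39 ± 0.16. In both the groups did not overlap, though R882H replicate 3 came close to empty vector replicate 2. Mdh2, the last enzyme of the tricarboxylic acid cycle, differed by -0.41 ± 0.16, Idh2, its NADP-dependent isocitrate dehydrogenase, by -0.34 ± 0.15 and Fh1, fumarase, by -0.36 ± 0.17, each without overlap; Fh1 came to -0.23 without R882H replicate 2. Taken as the mean over the list of each gene's deviation from its own mean, the tricarboxylic acid cycle stood at 0.10, 0.01 and 0.27 with the empty vector and -0.20, -0.18 and -0.01 with R882H. Those array values did not overlap, while those of oxidative phosphorylation did, at 0.18, -0.05 and 0.32 against -0.25, -0.25 and 0.05.

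For fatty acid oxidation the empty vector arrays lay close together and apart from R882H, at 0.09, 0.10 and 0.09 against -0.13, -0.14 and -0.01. Of its 22 genes tested, 3 had the higher mean with R882H, 4 were lower without overlap, against 8.87% of all genes, and the median was -0.20. Hadhb, the beta subunit of the mitochondrial trifunctional protein, stood at 2.43, 2.57 and 2.78 against 2.01, 2.17 and 2.34, and Hadh, a dehydrogenase of the same spiral, at -1.24, -0.84 and -0.99 against -1.27, -2.11 and -1.34. Both were lower on every R882H array, by 0.42 and 0.55 on average, and Hadh differed by -0.28 without R882H replicate 2, its lowest array. Glycolysis was more mixed, with 5 of 24 genes higher in mean and a median of -0.33, or -0.21 without empty vector replicate 3. Pkm, pyruvate kinase, stood at 5.36, 5.17 and 5.80 against 4.66, 4.61 and 5.29 and overlapped between groups. Slc2a3, the glucose transporter GLUT3, went the other way, at 1.74, 2.18 and 1.76 against 2.30, 2.58 and 2.20. All 3 R882H arrays were the higher ones for Slc2a3, with a difference of 0.47 ± 0.18. Pfkfb3, which makes an activator of glycolysis, differed by -0.60 ± 0.27 and also did not overlap; without empty vector replicate 3 it differed by -0.31.

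Nucleotide and lipid synthesis were lower in part. In the purine list, 2 of 26 genes had the higher mean and 7 were lower without overlap, against 8.87% of all genes; its median was -0.26, and -0.15 without empty vector replicate 3. Impdh1, an enzyme of guanine nucleotide synthesis, differed by -0.40 ± 0.16, and Gmps, the next step, by -0.46 with no overlap. Adenylate kinases did not go 1 way: beside the low Ak4, Ak1, the cytosolic form, stood at -2.52, -2.11 and -2.29 against -1.74, -1.83 and -1.71. Every R882H array was above every empty vector array for Ak1, a difference of 0.55 ± 0.18. In the pyrimidine list, whose median of -0.14 came to -0.26 without R882H replicate 3 and -0.21 without empty vector replicate 2, 5 of 20 genes were lower without overlap, among them Umps, the enzyme that makes UMP, by 0.42 and Dut, the dUTPase, by 0.28. In the serine and one-carbon list the median over 17 genes was -0.29, or -0.19 with empty vector replicate 3 left out and -0.17 with R882H replicate 2 left out. Without overlap 2 of the 17 were lower, a share near the 8.87% of all genes, among them Gcsh, a carrier of the glycine cleavage system, by 0.30, with 1 of its 3 probes of opposite sign.

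In cholesterol synthesis, 4 of 22 genes were lower and none higher at an unadjusted p under 0.05, against 3.5% and 5.63% of all genes. Among these were Hmgcs1, an early synthase of the pathway, Pmvk, phosphomevalonate kinase, and Nsdhl, a later sterol enzyme. Pmvk stood at 3.49, 3.67 and 3.64 against 3.25, 3.13 and 3.18, without overlap, and differed by -0.41 ± 0.14. Mvk, the kinase just before Pmvk, went the other way by 0.33, also without overlap, so the pathway's steps did not share 1 direction. The list's median was -0.27. In the sphingolipid list, whose median was -0.14 over 27 genes and -0.08 with any 1 of the R882H arrays left out, Sptlc2 stood out as given above; Smpd4, a sphingomyelinase, and Ormdl2, a regulator of the same transferase, differed by -0.52 ± 0.19 and -0.46 ± 0.17. Sgms1, a sphingomyelin synthase, and Ormdl3 were higher without overlap, by 0.82 and 0.70.

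Endoplasmic reticulum folding genes had the lowest median of all lists, -0.48 over 26 genes, with 3 higher in mean and 4 lower at an unadjusted p under 0.05, against 3.5% of all genes. Canx, the lectin chaperone calnexin, stood at 5.74, 5.82 and 5.99 against 5.31, 5.30 and 5.38, a difference of -0.52 ± 0.14. The Canx groups were clearly apart, with the R882H arrays close together. Ern1, the stress sensor IRE1, stood at 1.84, 1.80 and 2.30 against 1.38, 1.61 and 1.39, a difference of -0.51 ± 0.17, and the isomerase gene Pdia6 differed by -0.75 ± 0.28, with 1 of its 2 probes of opposite sign. Hspa5, the master chaperone BiP, differed by only -0.19, and the stress effector Ddit3 by -0.59, both with groups that overlapped. Array values of the list were 0.05, -0.12 and 0.67 with the empty vector and -0.23, -0.34 and -0.03 with R882H. Empty vector replicate 3 was by far the highest, as it was for the granulocyte and monocyte genes, and without it the list's median was -0.23, with 21 of the 26 still lower in mean.

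The proteasome, the mitochondrial ribosome, the transfer RNA synthetases and the spliceosome shared the low medians. Of 33 proteasome genes, 1 had the higher mean, 7 were lower without overlap, against 8.87% of all genes, and the median was -0.28, or -0.18 without empty vector replicate 3; 25 of the 33 lay in the brightest class. Psmb2, a core particle subunit, stood at 4.90, 4.65 and 5.02 against 4.32, 4.21 and 4.68, with an overlap between empty vector replicate 2 and R882H replicate 3, and differed by -0.45 ± 0.18. Of 32 mitochondrial ribosome genes, 2 had the higher mean, and the median was -0.30; Mrps27 differed by -0.87 ± 0.29, without overlap. Of 20 transfer RNA synthetases, 1 had the higher mean and 3 were lower at an unadjusted p under 0.05, against 3.5% of all genes, namely Farsa, Rars and Gars, for phenylalanine, arginine and glycine. Their list's median of -0.21 came to -0.10 when empty vector replicate 3 was left out, to -0.13 when R882H replicate 1 was, and to -0.34 when it was empty vector replicate 2. Of 33 splicing genes, 12 were lower and 1 higher without overlap, against 8.87% and 9.6% of all genes. Snrpc, a U1 particle protein, stood at 3.49, 3.50 and 3.62 against 3.05, 3.06 and 3.26, and Sf3b4, of the SF3B complex, at 2.59, 2.58 and 2.65 against 2.36, 2.05 and 2.34. The exception, Snrpa, another U1 protein, differed by 0.20. Array values of the splicing list overlapped, at 0.18, -0.02 and 0.21 against -0.18, -0.23 and 0.04, as R882H replicate 3 lay above empty vector replicate 2.

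Antioxidant genes had a median of -0.21 over 27 genes, or -0.14 without empty vector replicate 3 or without R882H replicate 2, with Gclc, the rate-limiting enzyme of glutathione synthesis, lower by 0.37 without overlap. Nqo1, a target of the NRF2 factor, differed by 0.85, with groups that overlapped. Lysosome genes had a median of -0.14, which came to -0.04 when empty vector replicate 3 was left out, to -0.09 when R882H replicate 2 was, and to -0.25 when it was empty vector replicate 2. Autophagy genes had one of -0.08, which lay just above 0 without empty vector replicate 3 or R882H replicate 2. Within them Atp6v0d1, a subunit of the proton pump, differed by -0.55 ± 0.21 and Atg16l1, an autophagosome gene, by 0.39 ± 0.16. Genes of PI3K, AKT and mTOR had a median of -0.02 over 28 genes and those of NF-kappaB one of 0.01 over 33, and neither list had a member at an unadjusted p under 0.05. None of the 28 had groups that did not overlap.

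**Figure D3:**
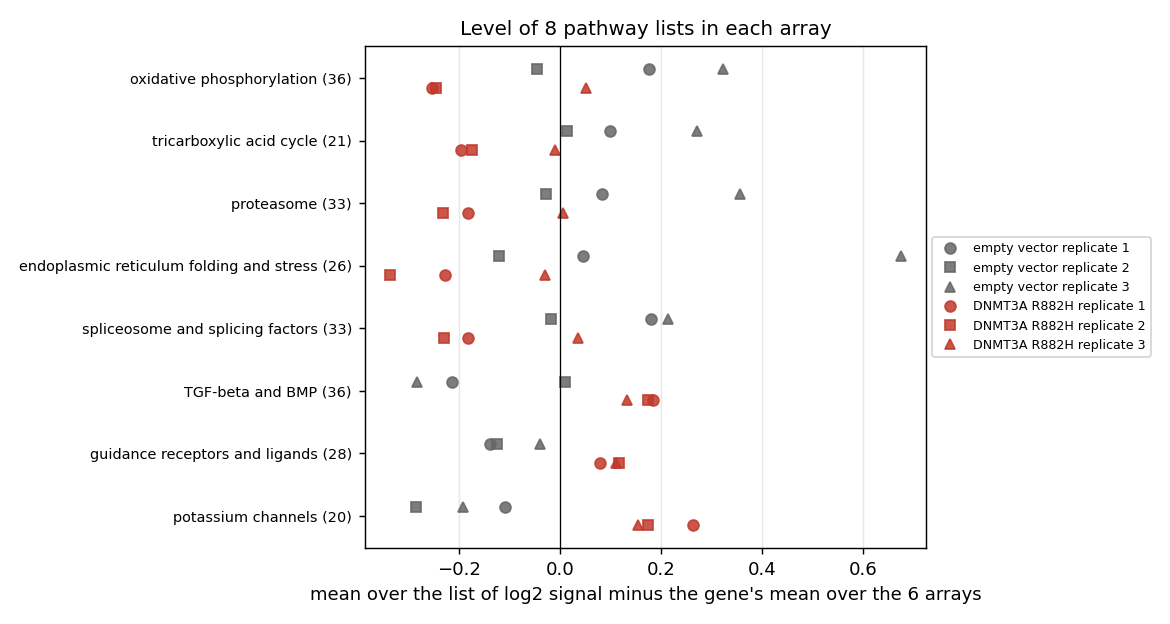
Level of 8 pathway lists in each array, as the mean over the list of log2 signal minus the gene's own mean over the 6 arrays, with empty vector arrays in grey and R882H arrays in red. The R882H arrays lie above the empty vector arrays for the TGF-beta and BMP, guidance and potassium channel lists and below them for the tricarboxylic acid cycle; in the other 4 lists the groups overlap.

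TGF-beta and BMP signalling had the largest share of members with a higher mean among the signalling lists. TGF-beta is known for holding blood stem cells quiescent, through type I and II receptors that activate SMAD factors. Of 36 genes tested, 29 had the higher mean with R882H, against 47.9% of all genes. At an unadjusted p under 0.05, 2 were higher and none lower, a share like the 5.63% of all genes that were higher, and 5 were higher and 1 lower without overlap, against 9.6% and 8.87%. The median was 0.30, or 0.27 over the 33 members detected on all 6 arrays. It stayed above 0 under every scaling run, at 0.14 with array-median scaling, and was 0.11 with the slide as a block. Array values were -0.21, 0.01 and -0.28 against 0.18, 0.17 and 0.13.

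Members of each step differed. Among ligands and their stores, Ltbp1, a latent TGF-beta binding protein gene, was well above background on no empty vector array and passed the filter only through R882H, where it was at least 1.815-fold higher. Tgfb3 went the other way, by 0.24, and Tgfb1 differed by -0.05. Bmp2 differed by 0.64 ± 0.29, with groups that overlapped, and by 0.42 without R882H replicate 1. It was well above background on 2 empty vector arrays and on all 3 R882H arrays. Among receptors, Tgfbr2, the type II receptor, stood at 0.61, 0.96 and 0.37 against 1.29, 1.08 and 0.98, and Tgfbr3, the co-receptor betaglycan, at 1.5, 1.48 and 0.70 against 1.91, 1.87 and 1.66. Every R882H array was above every empty vector array for both, by 0.47 and 0.59 on average, and the same held for Acvrl1, a receptor of endothelial and blood cells, by 0.32. Tgfbr1, the type I receptor, differed by -0.06. Among effectors, Smad3 stood at 1.09, 1.70 and 1.17 against 1.97, 1.76 and 1.73, a difference of 0.50 ± 0.19, but 1 of its 2 probes had the opposite sign. Targets and inhibitors were higher in mean too: Id1, a helix-loop-helix inhibitor, by 0.95 ± 0.40, Smad7, the inhibitory SMAD, by 0.62, Ski by 0.85 and Skil by 0.76, all 4 with groups that overlapped, and Id1 turned to -0.36 with the slide as a block.

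Guidance genes, known from axon growth and also from cell movement in blood and vessels, held the most members at an unadjusted p under 0.05 of any pathway list: 5 of 28, all higher, against 5.63% of all genes. The groups did not overlap for 6, all higher, against 9.6% of all genes. The median was 0.14, which was 0.22 without empty vector replicate 2, turned to -0.02 with array-median scaling and was 0.02 with the slide as a block. Ntn1, the secreted ligand netrin-1, stood at 2.5, 2.93 and 2.52 against 3.58, 3.60 and 3.73. The R882H arrays were close together and far above, by 0.99 ± 0.23, with an adjusted p of 0.365 by limma. Plxnc1, a semaphorin receptor, stood at 0.52, 1.18 and 0.03 against 2.03, 2.15 and 1.46, a difference of 1.30 ± 0.35, and Sema4b, a membrane semaphorin, at 3.38, 3.33 and 2.97 against 4.09, 3.72 and 3.59. Plxna1, another plexin, differed by 0.46 and Epha4, an ephrin receptor, by 0.31, both without overlap. Robo4, a receptor that is also one of the endothelial marker genes, stood at -1.51, -1.16 and -1.93 against 0.03, -0.29 and -0.69, a difference of 1.22 ± 0.34. The mean over the 7 of 9 endothelial genes tested was -2.28 to -0.67 against -0.81 to -0.31, with Cdh5 and Cldn5 below the detection filter. Of the 7, 2 passed the filter only through the R882H group, Emcn and Tie1. Pecam1 alone had the lower mean with R882H, by 0.31, with groups that overlapped. The median difference was 1.13 over the 7 and 1.12 over the 5 detected on all 6 arrays, and their part was not tested. The netrin receptors Dcc and Unc5a differed by 0.06 and 0.05.

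**Figure D4:**
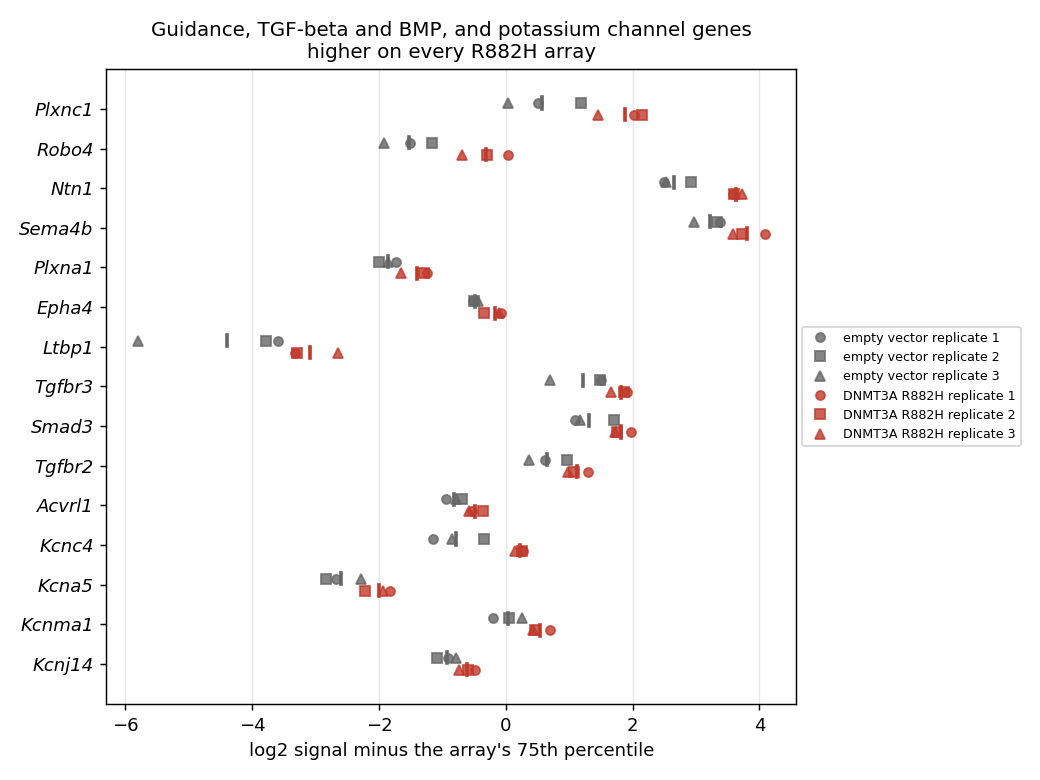
Log2 signal, scaled to the 75th percentile of its array, for the guidance, TGF-beta and BMP, and potassium channel genes whose 3 R882H arrays (red) all lie above the 3 empty vector arrays (grey), with a vertical tick at each group's mean. These are 6 of 28, 5 of 36 and 4 of 20 members tested, chosen for not overlapping; Ltbp1 was well above background on no empty vector array, and Ntn1 goes from 2.5 to 2.93 in the empty vector arrays to 3.58 to 3.73 with R882H.

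Other surface and signalling genes differed singly. Wnt5a, a noncanonical Wnt ligand, stood at 3.03, 3.23 and 3.08 against 3.69, 3.65 and 3.51, a difference of 0.50 ± 0.15 without overlap. The Wnt list did not share 1 direction, with a median of 0.07 over its 25 genes tested, Wnt5a among them, that turned to -0.09 with array-median scaling. The receptor Fzd5 stood at -1.89, -2.19 and -0.82 against -2.23, -3.15 and -2.46, all lower. Its difference of -0.98 ± 0.44 was -0.57 without empty vector replicate 3 and turned to 0.04 with the slide as a block. Notch3 stood at -3.94, -3.41 and -3.64 against -2.55, -3.27 and -1.85 and was well above background on 1 empty vector array and on all 3 R882H arrays; the other 26 Notch genes had none at an unadjusted p under 0.05. In the cAMP list, Rgs16, which shortens signals of G proteins, stood at -1.63, -1.86 and -1.24 against -1.09, 0.36 and 0.10, a difference of 1.37 ± 0.38, and Pde2a, a cyclic nucleotide phosphodiesterase, differed by 0.69 ± 0.25. Prkar2a, a regulatory subunit of protein kinase A, was lower on every R882H array, by 0.74 ± 0.30. The list's median of 0.14 was 0.23 without empty vector replicate 2 and turned to -0.01 with array-median scaling. Among amino acid transporters, Slc7a8 and Slc7a1, carriers of neutral and cationic amino acids, differed by -0.50 ± 0.17 and -0.50 ± 0.22, without overlap for the first and with -0.28 for the second without empty vector replicate 3, whereas the list's median over 17 genes was 0.01.

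Genes best known outside blood were detected as well. Of 46 potassium channel genes, 20 passed the filter, and of these 18 had the higher mean with R882H, against 47.9% of all genes. At an unadjusted p under 0.05, 3 were higher, against 5.63% of all genes, and none lower; 4 were higher without overlap, against 9.6%. A member could pass the filter through the R882H group alone, as 2 did, and over the 18 detected on all 6 arrays the median was 0.24, against 0.28 over the 20. It was 0.04 with the slide as a block, and 18 of the 20 lay outside the 2 brightest classes. Kcnc4, a voltage-gated channel of fast-firing cells, stood at -1.14, -0.35 and -0.85 against 0.27, 0.26 and 0.15, a difference of 1.01 ± 0.31. Kcna5, another voltage-gated channel, stood at -2.68, -2.83 and -2.29 against -1.83, -2.22 and -1.94, and Kcnma1, the calcium-activated large-conductance channel, at -0.20, 0.05 and 0.26 against 0.70, 0.47 and 0.43. The R882H arrays were above the empty vector arrays in each of the 3. In the placental list, 12 of 38 genes passed the filter, 5 of them only through the R882H group, and Rhox9, a homeobox gene of the reproductive tract and placenta, was well above background on no empty vector array and at least 2.55-fold higher with R882H. Over the 7 detected on all 6 arrays the median was 0.11, to which Prl3b1 belongs. Synaptic vesicle genes other than Syp went both ways: Syt3, a synaptotagmin, by 0.82 ± 0.30, or 0.44 without empty vector replicate 3, Stxbp2, a partner of syntaxins that also serves granule release in blood cells, by 0.38, and Rims1, of the release zone, by -0.74 ± 0.25. Syt3 was well above background on 2 empty vector arrays and Rims1 on 2 R882H arrays, so each passed the filter through 1 group alone. Doc2g, a calcium sensor relative, was well above background on no R882H array and at least 1.86-fold lower there.

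Most transcription factor families centred near the median of all genes, with single members apart. The KLF and SP list had a median of 0.32 over 21 genes, but 0.05 over the 18 detected on all 6 arrays and 0.01 with the slide as a block. Leaving out 1 array brought it to 0.07 (empty vector replicate 1), 0.08 (R882H replicate 3) or 0.14 (empty vector replicate 2). Its members without overlap were Sp6 at 3.71, 3.96 and 3.85 against 4.43, 4.55 and 4.08, Sp4 at 4.37, 4.72 and 4.49 against 4.96, 5.02 and 4.79, and Sp7, by 0.44. BTB zinc finger genes had a median of 0.02 over 40, in which the low Zbtb16 stood apart from Zbtb26, higher by 0.59 ± 0.22, or 0.34 without empty vector replicate 1. Nuclear receptors had a median of 0.03 over 31, with Rorb, a retinoid-related orphan receptor, at 2.04, 2.18 and 2.06 against 2.76, 2.85 and 2.44. Its groups did not overlap, but 1 of its 2 probes had the opposite sign. Nr1h3, the liver X receptor alpha, differed by 0.59 ± 0.23. Forkhead and Sox genes had a median of 0.03 over 28, with Sox12 higher by 0.60 ± 0.25, or 0.40 without empty vector replicate 1, and Foxp3 by 0.44 ± 0.16. In the clock list, Nfil3, a repressor that acts with the clock, and Clock itself were lower in mean, by 1.12 ± 0.43 and 0.61 ± 0.26, with groups that overlapped; Nfil3 came to -0.71 without empty vector replicate 3. The list's median of -0.10 turned to 0.08 with the slide as a block.

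Promoter CpG content was set beside the differences because it is the substrate of the enzyme and was not used to choose the samples. A promoter of the RefSeq table matched 10352 of the 12920 genes, and these were cut into 3 equal classes by observed over expected CpG, at 0.588 and 0.835. The median difference was 0.12 in the 3450 genes of lowest CpG, -0.05 in the 3451 of the middle class and -0.10 in the 3451 of highest CpG. Groups that did not overlap were higher with R882H for 15.9%, 6.8% and 5.7% of the genes and lower for 5.4%, 9.2% and 12.3%, against 9.6% and 8.87% of all genes. At an unadjusted p under 0.05, 350 of the 3450 genes of the lowest class were higher and 99 lower, whereas of the 3451 of the highest class 93 were higher and 133 lower. Of all genes, 5.63% were higher and 3.5% lower, and the lower counts of both classes lay near that share. These counts include genes that passed the filter through 1 group alone. Genes are not replicates, and low-CpG genes were dimmer, so the CpG classes were also compared within the 5 classes of mean signal. The order held in each of these, from 0.30, 0.15 and 0.11 among the dimmest genes to -0.01, -0.12 and -0.14 among the brightest. These values include genes that passed the filter through 1 group alone, most often R882H. Detected on all 6 arrays were 2924 of the 3450 genes of lowest CpG and 3330 of the 3451 of highest. The comparison within signal classes was not repeated on those genes, so the part of the filter in it was not tested.

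Per array, the median over genes of the deviation from the gene's own mean was, in the lowest class, -0.05, -0.04 and -0.07 with the empty vector and 0.08, 0.09 and 0.03 with R882H. In the highest class it was 0.03, 0.02 and 0.08 against -0.07, -0.07 and 0.01. The groups did not overlap in either class. With only genes detected on all 6 arrays the medians were 0.08, -0.06 and -0.10. The lowest class minus the highest came to 0.22 and ranged over the alternatives from 0.13, with the deposited value table, to 0.27, without R882H replicate 3; with the slide as a block it was 0.14. The sign of the lowest class itself was not stable, since it read -0.03 with array-median scaling. Single named genes did not follow the classes closely. Among those named for a small p or a large difference and held in the table, 6 of the 13 higher genes lay in the lowest class, 3 in the middle and 4 in the highest, against 5, 3 and 6 of the 14 lower genes. Averaged over a gene's starts, observed over expected CpG was 0.147 for Prl3b1 and 0.696 for Syp, in the lowest and the middle class, and 1.0 for Odf2l and 0.858 for Ak4, both in the highest. Others went the opposite way: Chst10 (0.99), Wtip (0.967), Nkain2 (0.935) and Crip2 (0.883) were higher with a promoter of the highest class, and Ccl6 (0.152), Pglyrp1 (0.218), Aldh3b1 (0.235), Dab2 (0.454) and Klhl23 (0.51) were lower with one of the lowest.

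**Figure D5:**
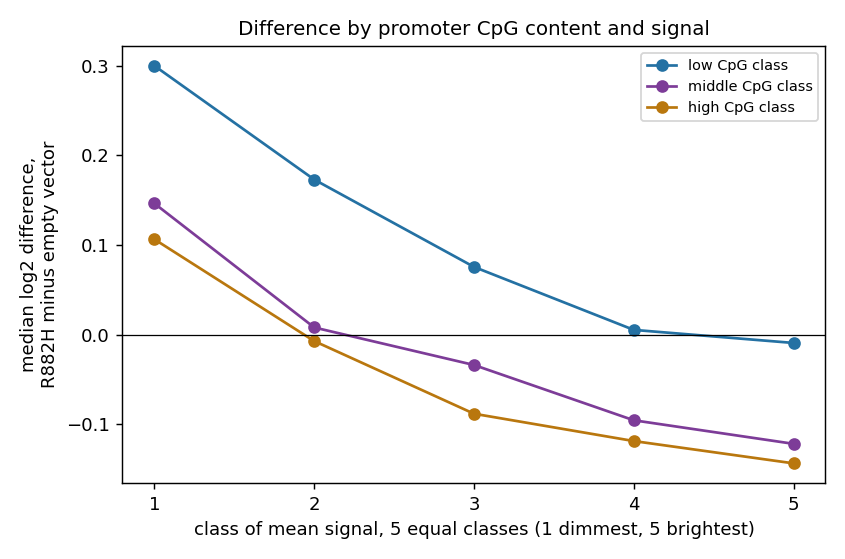
Median log2 difference, R882H minus empty vector, by class of mean signal (x axis, 5 equal classes, dimmest to brightest) for genes in the low, middle and high class of promoter CpG content (lines), over the 10352 genes with a promoter in the table. The low class lies above the others in each of the 5, at 0.30 among the dimmest and -0.01 among the brightest genes, and all 3 lines fall from dim to bright.

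Probes without a gene symbol were tested in a separate fit over all probes that passed the filter. There 1 probe passed an adjusted p under 0.05 by limma, A_30_P01032725, named here because it was the only one. The array design places it on the reverse strand of chr8:122920901-123008463 (mm9), and no annotation of that build was used here. It stood at -5.53, -5.74 and -5.93 with the empty vector, not well above background on any of these arrays, and at -3.01, -2.58 and -3.12 with R882H, well above background on all 3. With the dim group at its bound it was at least 2.15-fold higher, with an adjusted p of 0.00497. The wild-type arrays read -3.71, -3.64 and -3.88, between the groups.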

How the data were processed

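RNA of 9 samples was read on Agilent SurePrint G3 mouse arrays, 1 colour (Cy3), and the 3 empty vector and 3 DNMT3A R882H samples were compared. Per the file headers, the authors quantified scans with Agilent Feature Extraction 10.10.1.1 (array design 028005, probe coordinates on mm9), and the deposited intensity of each spot is background-subtracted on a linear scale. Per the file headers each spot also has calls (well above background, outlier, control) and a median pixel intensity with its local background. The authors' deposited value table holds log2 values, by steps not given in the sources used here. Only 2 of its 9 columns held their own sample's array and 7 held another's, so groups follow the scanner files' own labels and the table is an alternative only.

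Each array had 62976 spots, 59305 of them not controls, for 55681 probes; 160 to 184 outlier spots an array were left out and 0 were saturated. Processed intensities were taken to log2, scaled to each array's 75th percentile and averaged over spots of a probe. A symbol was found for 27235 probes through accessions and the RefSeq gene table. Kept were probes that all 3 arrays of either group called well above background (30557, of which 16766 had a symbol), with the probe of highest mean per symbol: 12920 genes, 11844 of them detected on all 6 arrays, 916 passing only through R882H and 160 only through the empty vector. Differences were fitted with limma 3.58.1 in R 4.3.3 (lmFit, eBayes, two-sided, all 9 arrays, 6 residual and 2.86 prior degrees of freedom), with Benjamini-Hochberg adjustment over all genes and a threshold of 0.05. The median SE was 0.23 on the log2 scale, which 3 arrays a group set. Where a group had no array with the gene well above background, its level is a bound, and "at least" folds divide the brighter mean by the dim mean, each dim array raised to its lowest signal well above background where it lay under that.

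Named genes were, among genes whose groups did not overlap and outside the marker lists, the 12 of smallest p and the 6 of largest difference (unadjusted p under 0.05) in each direction, up to 3 of smallest p in each of the 35 pathway lists, and Kit, Ly6a and Dnmt3a; RIKEN clones, gene models and olfactory receptors were left out. Further list members are named for their role or because their groups did not overlap, chosen after their values were seen. The comparison, the lists and the 14 marker lists were chosen with earlier results of these data known. Of the list symbols, 22 were updated and 2 were not matched. Some list members, 1 list and 1 gene that met the naming rule are not reported here, though counts and medians include them. Lists are described by counts and medians, with no set test. Tested on simulated data for this comparison (12918 genes, 200 changed), the fit called 41% of genes changed by 1 on the log2 scale, 81% of those changed by 2, and 5 unchanged genes. The simulated noise was drawn independently for each gene and array, with no part shared within a slide, array or replicate number. These shares need not hold for the real arrays. Mean pixel signals were not in the files used here, so the normexp alternative (offset 50) used median pixel intensities. Promoters (GRCm38.p6) are RefSeq's; counts and plots were made with Python 3.11.15 and pandas 2.3.3. Alternatives tried were background correction, scaling, filter, samples in the fit, array weights, slide block, replicate block, all probes, the deposited table and left-out arrays.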

Additional observations from a re-analysis of the deposited data

How the results depend on the processing

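No gene had an adjusted p under 0.05 in any alternative run on genes, and 1 probe had with all probes. The 1180 genes at an unadjusted p under 0.05 became 1952 with array weights, 754 with the slide as a block, 2865 over all probes and 610 with the deposited table by its own column names, and 670 to 1423 with 1 array left out, the lowest without R882H replicates 1 (706) and 2 (670). The 2386 genes without overlap became 5660 over all probes, 1576 with the deposited table, 3118 to 4930 with 1 array left out and 6143 without number 3 in any group, where fewer arrays leave more genes apart. Same-numbered arrays had deviations correlated at 0.08, 0.19 and 0.28, and differently numbered ones at -0.28 to 0.12. The labels do not name pairs, so the numbers were not taken as pairs. A part shared by same-numbered arrays was not tested. The replicate block gave 1788 genes at an unadjusted p under 0.05 and 0 adjusted calls.

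Of 136 named genes, 14 turned sign in at least 1 alternative. With the slide as a block these were Pou2af1 (-0.27), Slc6a9 (-0.44), Prpf4 (0.068), Map3k14 (-0.040), Fzd5 (0.037), Id1 (-0.36), Cry1 (0.21) and Ly6a (-0.55); with the deposited table Etfb (0.013), Gstm1 (0.36), Kit (-0.076) and Dnmt3a (-0.35), and the log2 difference of Numb (-0.0057); with no filter Zbtb37 (-1.04). Ly6a also read -0.021 with array-median scaling, -0.19 (without R882H replicate 3) to 0.39 with 1 array left out, and -0.056 without number 3 in any group. The cause was not tested, and slide-block values take nothing from R882H replicate 3 and rest on the link through the wild-type arrays. Of the 18 pathway lists with a median under -0.1, 17 stayed under 0 in each alternative except the deposited table, where 16 of the 18 did; the exception was the clock list. All 6 lists with a median above 0.1 stayed above 0 except under array-median scaling, where 4 did, and the deposited table, where 5 did. Signals near background, as of Wtip, Mtss2 or Pls1, limit what can be said of dim genes, and a median SE of 0.23 limits all others.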
